A study of Mus musculus with 8 samples.

Results

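The Rab proteins are the largest branch of the Ras superfamily of small GTPases. The 44 genes described here are those rows of the deposited expression table whose symbol is Rab, a number and at most a letter and a further digit, out of 11415 genes in all. Genes of proteins that bind or regulate Rab proteins are not counted among them. The cells were macrophages grown from mouse bone marrow, and mature mRNA and precursor RNA (pre-mRNA) of each gene were measured in the same ribosome-depleted, directional libraries of total RNA. All groups shared the genotype IL10-/-RAG2-/- (disrupted Il10 and Rag2 genes), the strain 129S6/SvEvTac and 5 days of culture in medium conditioned with M-CSF, a macrophage growth factor, the untreated controls included. The 4 groups, with 2 libraries each from 2 independent pools of macrophages, were untreated cells, cells given 1 ng/mL LPS for 195 min (LPS), cells given LPS and 1 ng/mL IL-10 together for the whole 195 min (IL-10 throughout), and cells on LPS for 195 min to which IL-10 was added 30 min before the end (late IL-10). For late IL-10 no dose is restated in the labels, which give neither the age of the mice nor how many animals made up a pool. LPS is a bacterial lipopolysaccharide sensed by Toll-like receptor 4, and IL-10 is a cytokine that restrains the macrophage response to it.

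A Rab protein switches between a GTP-bound form, which sits on a membrane and recruits effectors, and a GDP-bound form, which an escort protein can lift back into the cytosol. Guanine exchange factors turn the switch on and GTPase-activating proteins turn it off, and each Rab marks its own compartment, so that the set of Rabs on a vesicle decides which tether, motor or fusion machinery it meets. In macrophages these steps underlie the uptake and ripening of phagosomes, the delivery of Toll-like receptors to and from the cell surface, and the secretion of cytokines.

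Library depth, summed over all genes, was 21412968 to 53172133 reads for mRNA and 8661271 to 31508394 for pre-mRNA. All 44 Rab genes passed the filter on low values in both measures. No Rab gene had under 10 mRNA reads in any library, and 4 had under 10 pre-mRNA reads in at least 1. The smallest count in the LPS mRNA libraries was 11 over the whole table, so a Rab gene with less LPS mRNA than that is not analysed here. Macrophage identity of the cells was checked with 10 marker symbols, of which 9 were in the table, with a summed 515235 to 528661 normalised mRNA reads per untreated library and 790930 to 837368 per LPS library, 624248 to 653173 per IL-10 throughout library and 796814 to 813112 per late IL-10 library. Of these 9 genes 1 rose and 2 fell with LPS, and 1 was called between IL-10 throughout and LPS. Of 5 B cell markers 0 were in the table. Of 8 T cell markers 3 were (1 rose and 1 fell with LPS, none of them a CD3 chain), with sums of 3341 to 5608 untreated and 449 to 762 with LPS, and of 5 mast cell and basophil markers only Kit was, at 1.98 to 22.3 and 16.5 to 16.8. Dendritic cell markers (5 of 7 in the table, 4 of which rose with LPS) summed to 1363 to 2911 normalised reads in untreated and 9528 to 17955 in LPS libraries, with 3057 to 4661 in IL-10 throughout and 8944 to 16008 in late IL-10 libraries. Sums were 1893 to 2607 untreated and 2488 to 3000.4 with LPS for granule markers of neutrophils (7 of 10, 5 rose), and 1346 to 2424 and 3743 to 4359 for stromal and endothelial markers (4 of 8, 3 rose). The part of these markers in the Rab results was not tested.

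The labels link no library of one group to a library of another, but the gap between the 2 libraries of a group (called A and B) recurred from group to group. Over 11371 genes outside the Rab family the mRNA gaps, A minus B on the log2 scale, correlated at 0.34 to 0.78 among the untreated and the 2 IL-10 groups and at -0.84 to -0.33 between LPS and each of these. In these values LPS library B thus went with library A of the other groups. The pre-mRNA gaps, over 11087 genes, correlated at 0.33 to 0.68 as lettered. A letter does not tie a library of mRNA values to a library of pre-mRNA values. A fit with libraries matched in this way as a block (the matched fit) was added after the values were seen. It leaves every log2 change as it is and alters the error alone, and its match is drawn from the data rather than from the labels, so its calls are given beside the others and not in their place.

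Promoter sequences of the Rab genes were taken from RefSeq on build GRCm38.p6, where 38 of the 44 genes had 50 windows, each from 250 bases before to 50 bases after a start of transcription. The windows of 3 genes are printed without the part after the start, 5′ to 3′ on the strand of the gene. Rab31 is shown because it is the Rab gene on which the IL-10 comparisons turn, Rab20 and Rab5a because they rose with LPS and hold a motif for a factor of the macrophage response. Capitals mark the interferon response element in Rab20, and in Rab5a first the TFE-family E-box and then the CRE.
Rab31 (chr17:65772753-65773002, minus strand): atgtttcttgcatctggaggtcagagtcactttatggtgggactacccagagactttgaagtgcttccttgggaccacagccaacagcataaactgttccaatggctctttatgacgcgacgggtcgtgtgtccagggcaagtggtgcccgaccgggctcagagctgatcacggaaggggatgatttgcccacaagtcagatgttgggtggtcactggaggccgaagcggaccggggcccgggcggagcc
Rab20 (chr8:11478641-11478890, minus strand): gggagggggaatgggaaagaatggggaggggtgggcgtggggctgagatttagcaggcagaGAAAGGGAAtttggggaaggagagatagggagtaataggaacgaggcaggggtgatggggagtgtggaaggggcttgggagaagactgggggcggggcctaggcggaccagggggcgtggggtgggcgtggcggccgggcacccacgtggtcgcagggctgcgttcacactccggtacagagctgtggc
Rab5a (chr17:53478984-53479233, plus strand): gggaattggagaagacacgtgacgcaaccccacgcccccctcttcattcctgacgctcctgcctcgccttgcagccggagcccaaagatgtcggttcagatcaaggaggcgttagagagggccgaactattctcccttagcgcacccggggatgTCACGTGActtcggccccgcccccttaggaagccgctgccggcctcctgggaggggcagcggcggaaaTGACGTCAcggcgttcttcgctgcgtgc
The interferon response element, spelled GAAANNGAA and searched on both strands as were all motifs, was in the windows of Rab19 and Rab20 and in 8.56% of all 32851 promoter windows. In Rab20 it began at position -189 from the start, and the 2 motifs of Rab5a at -96 and -28. The E-box TCACGTGA was in windows of Rab5a, Rab21 and Rab24 and in 0.97% of all windows, and the CRE TGACGTCA was in that of Rab5a and in 1.79% of all. The STAT site TTCNNNGAA was found for Rab11a, Rab15, Rab19 and Rab34 (8.3% of all windows) and the kB consensus, to which Rel proteins bind, for Rab11a, Rab15 and Rab28 (8.46% of all). The windows of Rab31 held none of these 5 motifs, which says only that these letters are not there. Rab19, which also holds the interferon response element, did not rise with LPS, at a log2 change of -1.34 by mRNA. Motif matches are descriptions of sequence and no binding was measured. Any part of a motif in the changes with LPS was not tested.

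LPS against untreated cells asked which Rab genes a macrophage raises or lowers when it meets a bacterial product. By mRNA 11 of the 44 rose, against 19.2% of all genes tested, and 9 fell, against 16.5%. By pre-mRNA 11 rose, against 22.3%, and 10 fell, against 21.7%. The rises were led by Rab32, Rab12 and Rab20, which serve lysosome-related organelles, lysosomal delivery and phagosomes, and the falls by Rab3a, Rab7b and Rab4a, which serve regulated secretion, endosome-to-Golgi traffic and rapid recycling. The median log2 change of the 44 genes was 0.29 by mRNA and 0.20 by pre-mRNA, beside 0.01 and 0.00 for all genes tested, and these counts do not set the Rab genes apart from the table. In the mRNA libraries 22 Rab genes were higher in both LPS libraries than in both untreated ones, 15 were lower in both and 7 overlapped. The same was not counted over all genes, so nothing about the Rab genes as a set is read from it. The matched fit called 31 of 44 by mRNA, 21 higher and 10 lower, where it called 60.4% of all genes, and 31 by pre-mRNA, 19 higher and 12 lower, where it called 63%.

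Changes are differences of log2(normalised reads + 1) from limma, with p-values adjusted by the method of Benjamini and Hochberg over all genes tested and called when below 0.05. In bulk RNA, a lower level per cell and fewer cells of a kind cannot be told apart, and the p-values measure the spread between these libraries, which may be technical in part. That spread holds the gap between libraries that recurred from group to group, since only the matched fit has a block for it. The direction of the smaller rises rests on the scaling. With libraries scaled to total reads the median of all genes moved by -0.75 (mRNA) and -0.91 (pre-mRNA). The Rab mRNA calls became 4 rises and 17 falls, beside 1203 rises and 4496 falls over all genes. The Rab pre-mRNA calls became 5 rises and 15 falls, beside 1237 and 4682. Upper-quartile scaling moved that median by -0.29 and -0.35. Rab rises and falls were then 8 and 9 by mRNA (1706 and 2695 over all genes). By pre-mRNA they were 9 and 12 (1893 and 3103 over all genes).

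**Figure D1:**
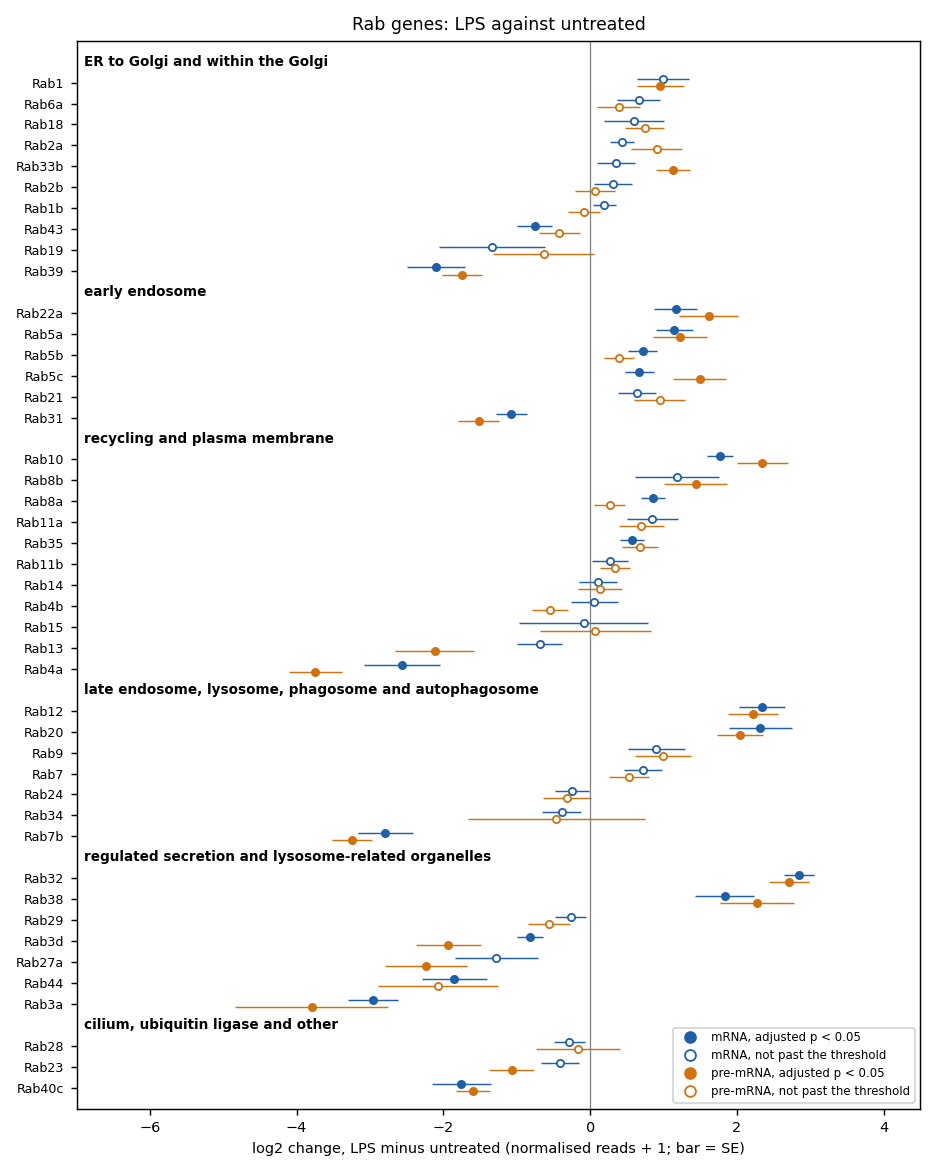
Log2 change of mRNA (blue) and pre-mRNA (orange) between LPS and untreated libraries for each of the 44 Rab genes, grouped by role, with bars for the standard error and filled points for an adjusted p below 0.05. Rab32 at 2.84 is the highest mRNA point and Rab3a at -2.96 the lowest, and of the 11 filled mRNA points above 0, Rab5b, Rab5c and Rab35 lie below 0 under scaling to total reads.

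Early endosomes, where incoming cargo is sorted, are marked by Rab5 and its relatives, and 4 of these 6 genes rose by mRNA while 1 fell (3 and 1 by pre-mRNA). Over all genes 19.2% rose and 16.5% fell by mRNA, and 22.3% and 21.7% by pre-mRNA. No role was tested against all genes, and with few genes to a role nothing about a compartment is read from such counts, here or below. Rab5a, which drives the fusion of early endosomes, had 1323 and 1113 normalised mRNA reads in the untreated and 2365 and 3056 in the LPS libraries. Rab22a, which acts on early and recycling endosomes, had 1260.1 and 1244 untreated and 2267 and 3472 with LPS. Both genes were higher in each LPS library than in either untreated one. Rab5a rose by 1.15 ± 0.25 (SE, adjusted p = 0.0138) by mRNA and rose by 1.23 ± 0.37 (SE, adjusted p = 0.0289) by pre-mRNA. Rab22a rose by 1.16 ± 0.30 (SE, adjusted p = 0.0225) by mRNA and rose by 1.62 ± 0.40 (SE, adjusted p = 0.0143) by pre-mRNA. The other Rab5 isoforms shifted less: Rab5b mRNA rose by 0.72 ± 0.20 (SE, adjusted p = 0.0298) and Rab5c mRNA rose by 0.67 ± 0.20 (SE, adjusted p = 0.0376), but under scaling to total reads they stood at -0.030 and -0.077. Leaving out any one untreated or LPS library ended both calls, as did upper-quartile scaling, a fit of only the groups compared and, for Rab5c, leaving out any IL-10 library. Rab5c pre-mRNA rose by 1.49 ± 0.36 (SE, adjusted p = 0.0125), and Rab5b pre-mRNA was at 0.39 ± 0.20 (SE, adjusted p = 0.154). Rab21, an integrin and endocytic recycling Rab, was at 0.64 ± 0.25 (SE, adjusted p = 0.0912) by mRNA. Rab31, which moves cargo between the trans-Golgi network and endosomes, was the member that fell, from 10446 and 7509 mRNA reads to 4229.8 and 4169. It fell by 1.08 ± 0.21 (SE, adjusted p = 0.00845) by mRNA and fell by 1.52 ± 0.28 (SE, adjusted p = 0.00427) by pre-mRNA. Library B of either group was needed for the mRNA calls on Rab5a and Rab22a, and untreated library A too for Rab22a; both calls were also lost when libraries were scaled to total reads. The mRNA call on Rab31 needed LPS library B. The pre-mRNA calls on Rab5a, Rab22a and Rab5c needed both untreated libraries and LPS library A, those on Rab5a and Rab5c were lost under scaling to total reads, and that on Rab5a also with no filter.

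Recycling and plasma membrane Rabs numbered 11, with 3 rises and 1 fall in mRNA, and 2 of each in pre-mRNA. All genes gave 19.2% rises and 16.5% falls by mRNA, and 22.3% and 21.7% by pre-mRNA. Rab10, which carries vesicles to the cell surface and in macrophages delivers Toll-like receptor 4 there, had 5664 and 5394 mRNA reads untreated and 18677 and 19018 with LPS. The LPS libraries lay close together and far above the untreated ones. Rab10 mRNA rose by 1.77 ± 0.18 (SE, adjusted p = 0.000689) and its pre-mRNA rose by 2.35 ± 0.34 (SE, adjusted p = 0.00151). Rab8a, an exocytic Rab, had 2037 and 2274 mRNA reads untreated and 3915 and 3874 with LPS. Its mRNA rose by 0.86 ± 0.16 (SE, adjusted p = 0.00789), while its pre-mRNA was at 0.26 ± 0.21 (SE, adjusted p = 0.336). The mRNA call on Rab8a was lost without LPS library B and under scaling to total reads. Rab8b, its close relative, differed widely between LPS libraries (28799 and 59064 mRNA reads) and was at 1.19 ± 0.57 (SE, adjusted p = 0.147) by mRNA. In the matched fit, which pairs LPS library A with untreated library B, its mRNA change was called (adjusted p = 0.00125). Rab8b pre-mRNA rose by 1.44 ± 0.43 (SE, adjusted p = 0.0293), a call lost without either untreated or IL-10 throughout library or LPS library A, under scaling to total reads, with no filter and with only the groups compared. Rab35, a Rab of fast recycling and of phagocytosis, rose by 0.57 ± 0.16 (SE, adjusted p = 0.0327) by mRNA, but was at -0.18 under scaling to total reads, and the call was lost without any one of the 8 libraries, under upper-quartile scaling and with only the groups compared.

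Rab4a, which returns receptors from early endosomes to the surface, showed the opposite: 262 and 304 mRNA reads untreated and 40.2 and 54.6 with LPS. The groups did not overlap in either measure. Rab4a mRNA fell by 2.56 ± 0.52 (SE, adjusted p = 0.0102) and its pre-mRNA fell by 3.75 ± 0.36 (SE, adjusted p = 0.000246), the mRNA call being lost without untreated library B. Its paralogue Rab4b was at 0.06 ± 0.32 (SE, adjusted p = 0.905) by mRNA with overlapping groups. Rab13, a tight-junction Rab, had 79.90 and 83.06 pre-mRNA reads untreated and 19.98 and 16.20 with LPS, and fell by pre-mRNA alone, by 2.12 ± 0.54 (SE, adjusted p = 0.0159), a call that needed both untreated libraries and LPS library B. The remaining members, Rab11a, Rab11b, Rab14 and Rab15, of which the Rab11 pair marks recycling endosomes, lay between -0.09 and 0.85 by mRNA and none passed the threshold in either measure.

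Late endosomes, lysosomes, phagosomes and autophagosomes are served by 7 of the genes, and 2 rose and 1 fell in each measure. The shares over all genes were 19.2% and 16.5% by mRNA, and 22.3% and 21.7% by pre-mRNA. Rab12 (chr17:66494512-66519729 of mm10, minus strand), which sends receptors from endosomes to lysosomes, had 1860.1 and 1611 mRNA reads untreated and 7466 and 10259 with LPS. Rab20, which takes part in the acidification and maturation of phagosomes, had 287 and 411 untreated and 2276 and 1294 with LPS. Each was above both untreated libraries in both LPS libraries, Rab20 with a wide gap between the LPS libraries. Rab12 rose by 2.34 ± 0.31 (SE, adjusted p = 0.00202) by mRNA and rose by 2.22 ± 0.34 (SE, adjusted p = 0.00179) by pre-mRNA. Rab20 rose by 2.32 ± 0.43 (SE, adjusted p = 0.00733) by mRNA and rose by 2.04 ± 0.31 (SE, adjusted p = 0.00181) by pre-mRNA. The mRNA call on Rab20 was lost without untreated library A.

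Rab7b (chr1:131688695-131715439 of mm10, plus strand) was the member that fell. It works between late endosomes and the trans-Golgi network and in macrophages promotes the lysosomal degradation of Toll-like receptor 4. Its mRNA stood at 4336 and 8612 normalised reads untreated and 735 and 1058 with LPS, and its pre-mRNA at 4474 and 5273 and 593 and 439. The untreated libraries differed from each other by mRNA, yet the lower one was still far above both LPS libraries. Rab7b fell by 2.79 ± 0.37 (SE, adjusted p = 0.00194) by mRNA and fell by 3.25 ± 0.28 (SE, adjusted p = 0.000152) by pre-mRNA, and was called in both measures under every alternative run. Rab7, the general late endosome Rab, was at 0.72 ± 0.26 (SE, adjusted p = 0.0708) by mRNA, and Rab9, which retrieves receptors to the Golgi, at 0.90 ± 0.39 (SE, adjusted p = 0.114). Rab24 and Rab34 did not pass the threshold in either measure.

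Regulated secretion and lysosome-related organelles gave changes in both directions, with 2 rises and 3 falls among 7 genes in each measure. Beside them, 19.2% of all genes rose and 16.5% fell by mRNA, and 22.3% and 21.7% by pre-mRNA. Rab32 and its close paralogue Rab38 direct cargo to lysosome-related organelles, and Rab32 also acts against bacteria inside macrophages. Rab32 (chr10:10545002-10558265 of mm10, minus strand) mRNA stood at 3223 and 2405 normalised reads untreated and 19425 and 20567 with LPS, and Rab38 mRNA at 23.2 and 13.7 and 59.8 and 72.8. No LPS library came near an untreated one for either gene. Rab32 rose by 2.84 ± 0.20 (SE, adjusted p = 0.000193) by mRNA, a fitted 7.18-fold, and rose by 2.71 ± 0.27 (SE, adjusted p = 0.000315) by pre-mRNA, called in both measures under every alternative run. Rab38 rose by 1.83 ± 0.40 (SE, adjusted p = 0.0137) by mRNA and rose by 2.27 ± 0.50 (SE, adjusted p = 0.00883) by pre-mRNA, but under scaling to total reads neither call was made. Without untreated library B both calls were lost too, and each needed 1 LPS library, B for mRNA and A for pre-mRNA. The letters carry no link between the measures, so these may be the same library.

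Rab3a and Rab3d, which dock secretory vesicles for calcium-triggered release, and Rab44, a large Rab of granule exocytosis in blood cells, fell. Rab3a (chr8:70754679-70758677 of mm10, plus strand) mRNA was at 191 and 207 normalised reads untreated and 28.85 and 21.01 with LPS, Rab3d at 3019 and 3484 and 1933 and 1737, and Rab44 at 150.2 and 171 and 40.2 and 47.6. All LPS libraries were below all untreated libraries for the 3 genes. Rab3a fell by 2.96 ± 0.34 (SE, adjusted p = 0.00116) by mRNA and fell by 3.79 ± 1.04 (SE, adjusted p = 0.0211) by pre-mRNA, though its LPS pre-mRNA libraries of 1.18 and 21.6 reads hardly resembled each other, and that call was lost without either untreated library or LPS library A. Rab3d fell by 0.82 ± 0.18 (SE, adjusted p = 0.0126) by mRNA and fell by 1.93 ± 0.44 (SE, adjusted p = 0.00998) by pre-mRNA. Rab44 fell by 1.85 ± 0.44 (SE, adjusted p = 0.0183) by mRNA, and its pre-mRNA was at -2.07 ± 0.82 (SE, adjusted p = 0.0726). The mRNA call on Rab3d was lost without untreated or LPS library B, its pre-mRNA call without untreated library B, and the mRNA call on Rab44 without any one of the 4 libraries compared. Rab27a, an exosome and granule Rab, fell by pre-mRNA alone, by 2.24 ± 0.56 (SE, adjusted p = 0.0144), a call that needed both untreated libraries and LPS library A. Rab29, a trans-Golgi Rab that recruits the kinase Lrrk2, had 716 and 703 mRNA reads untreated and 592 and 587 with LPS, at -0.27 ± 0.21 (SE, adjusted p = 0.367) by mRNA.

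ER and Golgi Rabs, which move cargo along the early secretory route, gave 0 rises and 2 falls among 10 genes by mRNA and 2 rises and 1 fall by pre-mRNA. For all genes the shares were 19.2% and 16.5% by mRNA, and 22.3% and 21.7% by pre-mRNA. Rab39, which acts at the Golgi and on phagosomes, had 376 and 194 mRNA reads untreated and 59.8 and 64.4 with LPS. Rab39 fell by 2.10 ± 0.39 (SE, adjusted p = 0.00741) by mRNA and fell by 1.75 ± 0.27 (SE, adjusted p = 0.00187) by pre-mRNA. Rab43, with 6188 and 7411 mRNA reads untreated and 3401 and 4711 with LPS, fell by 0.76 ± 0.23 (SE, adjusted p = 0.0424) by mRNA, a call lost without any one of the 8 libraries and with only the groups compared, and 74.5% of its transcripts' 50-base words also occur in the overlapping gene Gm45140, so reads of these 2 genes may have been divided either way. Rab1, which carries vesicles from the ER to the Golgi, rose by 0.96 ± 0.32 (SE, adjusted p = 0.0433) by pre-mRNA, with 0.99 ± 0.35 (SE, adjusted p = 0.0671) by mRNA. Rab33b, a Golgi and autophagy Rab, rose by 1.13 ± 0.23 (SE, adjusted p = 0.00681) by pre-mRNA, a call lost under scaling to total reads or to the upper quartile. The pre-mRNA call on Rab1 was lost without any one of 5 libraries (both untreated, LPS library A and both IL-10 throughout) and under either of those scalings, with no filter and with only the groups compared, and under total reads it was at 0.039. Rab1b, Rab2a, Rab2b, Rab6a, Rab18 and Rab19 did not pass the threshold in either measure.

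Of the 3 remaining genes Rab40c, the substrate receptor of a ubiquitin ligase, fell. It had 1320.3 and 1077 mRNA reads untreated and 452 and 275 with LPS. Rab40c fell by 1.76 ± 0.40 (SE, adjusted p = 0.0155) by mRNA and fell by 1.60 ± 0.23 (SE, adjusted p = 0.00132) by pre-mRNA, with the mRNA call lost without either untreated library or LPS library B. Rab23, a Rab of the primary cilium, fell by pre-mRNA alone, by 1.07 ± 0.30 (SE, adjusted p = 0.0238), a call lost without any one untreated or LPS library, and Rab28 did not pass the threshold. Leaving out 1 library at a time changed the number of calls, over all genes as over the Rab genes. Calls by mRNA were fewest without LPS library B, in the whole table as among the Rab genes. Those by pre-mRNA were fewest without untreated library B, again in both. These changes were thus not particular to the Rab genes.

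**Figure D2:**
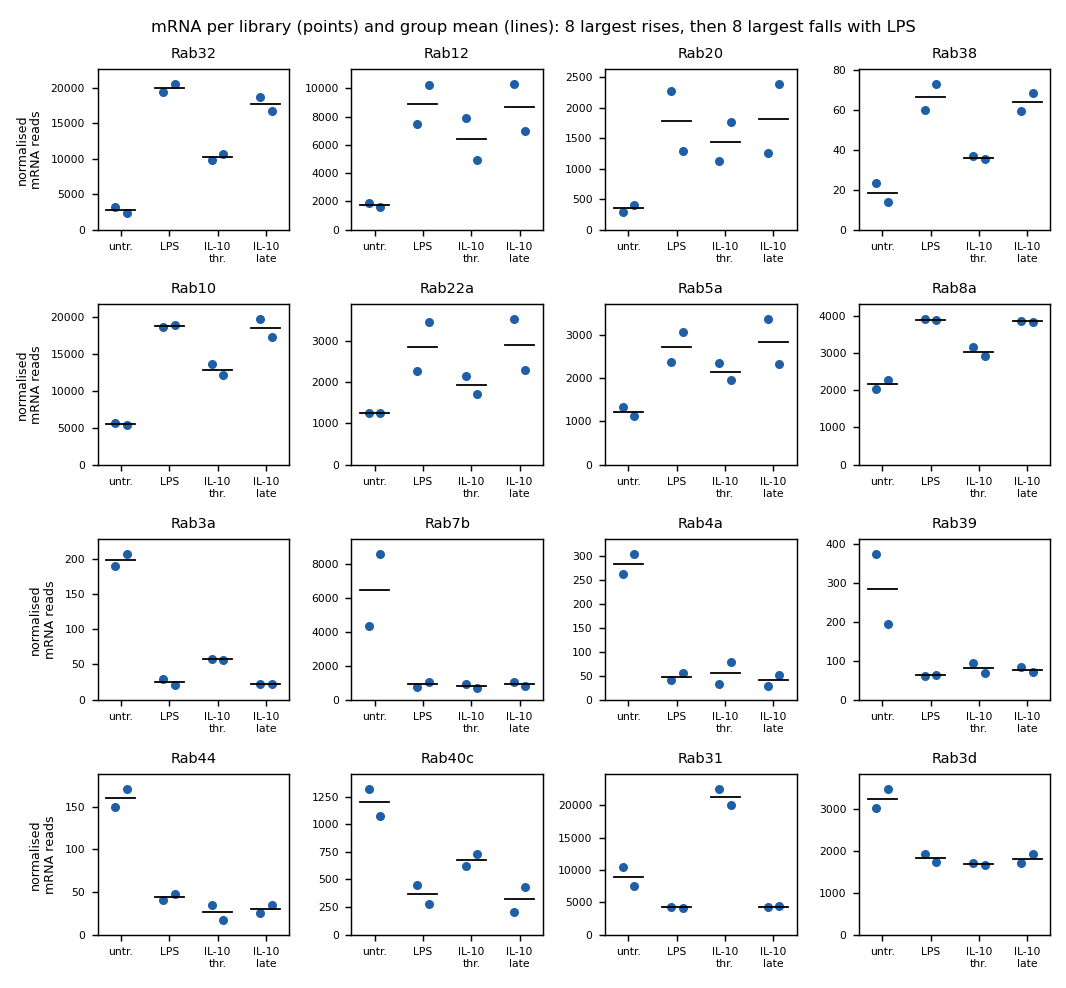
Normalised mRNA reads of each library (points) and the mean of each group (lines) in the 4 groups, for the 8 largest rises and the 8 largest falls with LPS, on axes that start at 0. Rab31 is the panel in which the IL-10 throughout libraries, at 22567 and 20075, lie above all others.

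Precursor and mature transcript were then compared. With LPS 8 Rab genes rose in both, 7 fell in both and 0 changed in opposite directions, while 3 rose and 2 fell by mRNA alone, 3 rose and 3 fell by pre-mRNA alone and 18 passed in neither. These classes were not counted over all genes, so they do not set the Rab genes apart. Across the 44 genes the mRNA and pre-mRNA changes had a Pearson correlation of 0.954, a description only, since both measures come from the same RNA. In the limma test of the difference between the pre-mRNA and the mRNA change with LPS, 0 of 44 Rab genes passed the threshold (against 0.162% of all genes with a higher and 1.08% with a lower pre-mRNA change). At an unadjusted p below 0.05 there were 4 such genes, Rab3d, Rab8a, Rab13 and Rab33b, named here after their values were seen. Genes of the whole table below that unadjusted p were not counted.

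IL-10 given throughout with LPS, set against LPS alone, asked which Rab genes the cytokine moves away from the LPS state. It shares its LPS libraries with the comparison of LPS and untreated cells. Rab31 was the 1 of 44 genes that rose by mRNA (against 1.19% of all genes) and 0 fell (against 1.05%). By pre-mRNA Rab31 was again the 1 that rose (against 2.44%) and Rab29 the 1 that fell (against 4.26%). Rab31 lies on the minus strand at chr17:65651729-65772752 of mm10, a gene of 121.0 kb. Its mRNA stood at 10446 and 7509 normalised reads in untreated, 4229.8 and 4169 in LPS and 22567 and 20075 in IL-10 throughout libraries. Its pre-mRNA stood at 5741 and 4871 untreated, 2132 and 1597 with LPS and 19289.7 and 15128 with IL-10 throughout. LPS lowered Rab31 in both libraries, and with IL-10 throughout both libraries were above the LPS and the untreated ones. Rab31 rose by 2.34 ± 0.21 (SE, adjusted p = 0.00571) by mRNA, a fitted 5.07-fold, and rose by 3.21 ± 0.28 (SE, adjusted p = 0.00235) by pre-mRNA, a fitted 9.26-fold. Both calls were made under every alternative run. Without LPS library B more pre-mRNA calls were made, over the Rab genes and over all genes. The matched fit called 5 Rab genes by mRNA (15.3% of all genes) and 15 by pre-mRNA, 4 higher and 11 lower (25.1% of all genes).

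**Figure D3:**
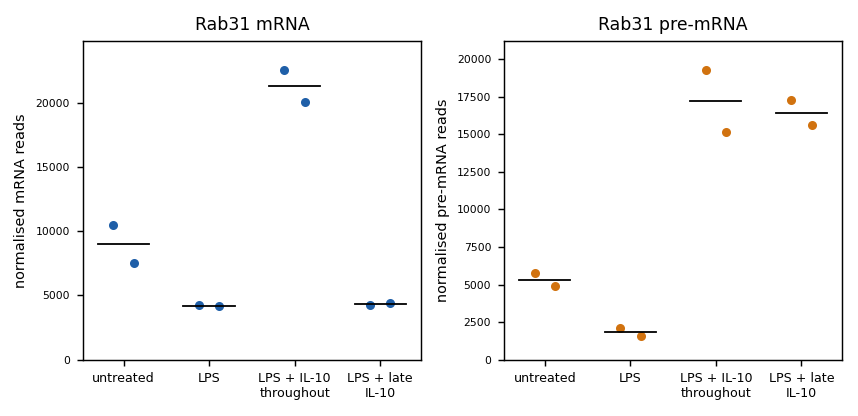
Normalised Rab31 mRNA reads (left) and pre-mRNA reads (right) of each library (points) with the group mean (lines), on axes that start at 0. Late IL-10 libraries sit with LPS by mRNA (4226 and 4443) and with IL-10 throughout by pre-mRNA (17292 and 15589).

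Rab29 lies at chr1:131867224-131872887 of mm10 on the plus strand. Its pre-mRNA stood at 337 and 372 normalised reads untreated, 226 and 254 with LPS and 67.8 and 107 with IL-10 throughout. Both IL-10 throughout libraries were below all untreated and LPS libraries. The pre-mRNA fell by 1.48 ± 0.29 (SE, adjusted p = 0.0297) against LPS, and the mRNA was at -0.30 ± 0.21 (SE, adjusted p = 0.615). The call was lost without any one untreated, LPS or IL-10 throughout library, and under scaling to total reads the change was -1.02 and was not called. It was lost also with upper-quartile scaling, no filter and only the groups compared.

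Over the Rab genes 32 of 44 mRNA changes lay below 0 (5923 of 11415 over all genes), with a median of -0.17 beside -0.02 for all genes. By pre-mRNA 31 of 44 lay below 0 (5547 of 11131 over all genes), with a median of -0.27 beside 0.00. That balance turned with the scaling: with total reads the median of all genes moved by 0.26 (mRNA) and 0.46 (pre-mRNA), and the Rab medians became 0.09 and 0.19. Several LPS-raised genes had IL-10 throughout libraries between untreated and LPS without passing the threshold. Rab32 had 9889.6 and 10656 mRNA reads with IL-10 throughout, below both LPS libraries, at -0.96 ± 0.20 (SE, adjusted p = 0.0721). Rab10 had 13698 and 12106, also below both LPS libraries, at -0.55 ± 0.18 (SE, adjusted p = 0.211). Rab21, which LPS had not raised past the threshold, had 1709 and 1473, at -0.72 ± 0.25 (SE, adjusted p = 0.248). In the other direction Rab3a, which LPS lowered, had 58.1 and 56.3 mRNA reads with IL-10 throughout, above both LPS libraries, at 1.18 ± 0.34 (SE, adjusted p = 0.163). Rab7b, by contrast, had 935 and 698 mRNA reads and overlapped the LPS libraries. The 4 genes Rab32, Rab10, Rab21 and Rab3a are those besides Rab31 at an unadjusted p below 0.05 by mRNA and were named after their values were seen. They are also the other 4 that the matched fit called by mRNA (adjusted p = 0.00951, 0.0230, 0.0210 and 0.0454). At that unadjusted limma p 716 of all 11415 genes were higher and 955 lower, so the count does not set the Rab genes apart. By pre-mRNA the lower genes of the matched fit were Rab5a, Rab5c, Rab9, Rab10, Rab12, Rab18, Rab21, Rab22a, Rab29, Rab33b and Rab38, and the higher ones Rab4a, Rab4b, Rab31 and Rab40c.

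Late IL-10 against LPS alone asked what the last 30 min of exposure did, and it uses the same LPS libraries as the comparison before. By mRNA 0 of 44 Rab genes rose and 0 fell, as did 0% of all genes in each direction, with 0 Rab genes (and 92 higher and 15 lower of all genes) at an unadjusted limma p below 0.05, and 0 called with limma-voom on the recovered reads. By pre-mRNA 1 rose (against 0.979% of all genes) and 0 fell (against 0.0629%). The 1 was Rab31. Its pre-mRNA stood at 17292 and 15589 normalised reads with late IL-10, against 2132 and 1597 with LPS, and its mRNA at 4226 and 4443 against 4229.8 and 4169. The precursor libraries thus overlapped those of IL-10 throughout, and the mRNA libraries overlapped those of LPS. Rab31 rose by 3.15 ± 0.28 (SE, adjusted p = 0.00396) by pre-mRNA, under every alternative run, and was at 0.05 ± 0.21 (SE, adjusted p = 1.000) by mRNA. The pre-mRNA change exceeded the mRNA change by 3.11 ± 0.33 (SE, adjusted p = 0.00333). In that test, added after the values were seen, 1 of 44 Rab genes had the higher pre-mRNA change (against 0.135% of all genes) and 0 the lower (against 0%). It was not called with only the groups compared in the fit, at an adjusted p of 0.116.

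Rab32, which LPS raised, had 3528 and 3142 pre-mRNA reads with late IL-10 against 7583 and 7534 with LPS, without overlap, at -1.18 ± 0.27 (SE, adjusted p = 0.129). Its mRNA was at 18693 and 16710.1 against 19425 and 20567. With IL-10 throughout the Rab32 pre-mRNA was at 5739 and 5293. Neither pre-mRNA difference passed the threshold, and in the matched fit that of late IL-10 did (adjusted p = 0.0170). Rab31 and Rab32 were the 2 Rab genes called there by pre-mRNA (4.29% of all genes), and by mRNA it called 0 (0.0526%). Rab4b and Rab8a were the other Rab genes at an unadjusted p below 0.05 by pre-mRNA with late IL-10, at 0.58 and -0.51 (adjusted p = 0.615 and 0.617). Of all 11131 genes tested, 554 were higher and 293 lower at that unadjusted limma p.

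**Figure D4:**
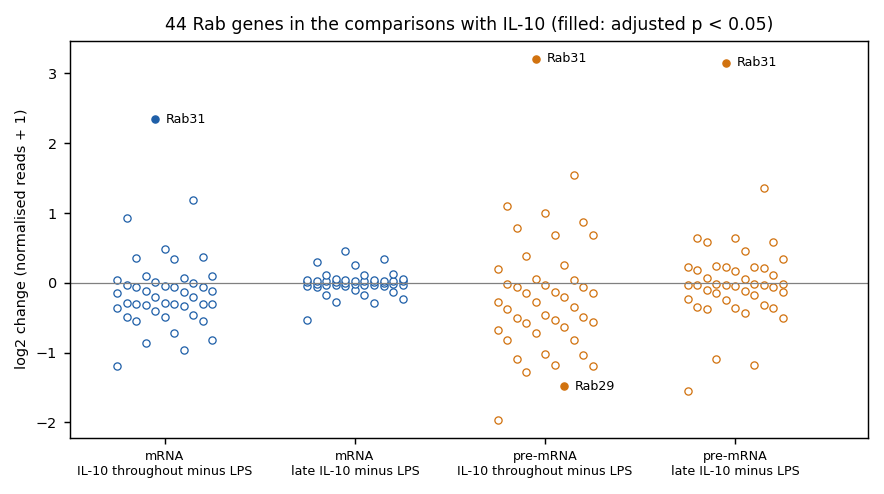
Log2 changes of the 44 Rab genes (1 point each, filled for an adjusted p below 0.05) for the 2 IL-10 schedules, each minus LPS, by mRNA (blue) and pre-mRNA (orange). Rab31 is the filled point at 2.34 by mRNA and at 3.21 and 3.15 by pre-mRNA, and Rab29 the one at -1.48.

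IL-10 throughout against late IL-10 compared the 2 schedules directly, with the same IL-10 libraries as above. By mRNA 1 Rab gene was higher with IL-10 throughout (against 0.517% of all genes) and 0 were lower (against 0.569%). By pre-mRNA 0 were higher (against 0.755%) and 1 was lower (against 2.2%). Rab31 mRNA was at 22567 and 20075 normalised reads throughout and 4226 and 4443 late, higher by 2.30 ± 0.21 (SE, adjusted p = 0.0147). Rab31 pre-mRNA was at 0.06 ± 0.28 (SE, adjusted p = 0.939) with overlapping libraries. Rab29 pre-mRNA was at 67.8 and 107 throughout and 253 and 292 late, a difference of -1.66 ± 0.29 (SE, adjusted p = 0.0365). Each call was lost without any one library of the 2 groups compared, and with only those groups in the fit. In the fit of only those groups, 0 genes of the whole table were higher and 0 lower by mRNA. By pre-mRNA 4 of all genes were higher and 15 lower, so that loss was not particular to these 2 genes. The call on Rab29 was lost also without either untreated library, with no filter and under other scalings. The matched fit called 5 Rab genes between the schedules by mRNA (13.7% of all genes) and 11 by pre-mRNA (23.8%).

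IL-10 throughout against untreated cells, a comparison added after the values were seen, gave the net distance from the resting state. By mRNA 6 of 44 rose (against 14.2% of all genes) and 8 fell (against 11.6%), and by pre-mRNA 5 rose (against 14.1%) and 7 fell (against 14.7%). Rab32 (1.88 by mRNA), Rab20 (2.03), Rab12 (1.85), Rab31 (1.26), Rab10 (1.22) and Rab35 (0.64) rose. Rab7b (-2.92), Rab44 (-2.67), Rab19 (-2.53), Rab4a (-2.46), Rab3a (-1.78), Rab39 (-1.74), Rab3d (-0.94) and Rab43 (-0.80) fell. The adjusted p of these 14 genes ran from 0.00114 to 0.0459. By pre-mRNA Rab32 (2.25), Rab31 (1.69), Rab10 (1.63), Rab20 (1.48) and Rab12 (1.18) rose, and Rab7b (-3.46), Rab44 (-3.27), Rab4a (-2.64), Rab3d (-2.56), Rab29 (-2.04), Rab39 (-1.77) and Rab40c (-0.91) fell. With scaling to total reads the median of all genes moved by -0.48 (mRNA) and -0.45 (pre-mRNA), and 4 Rab genes were higher and 10 lower in each measure. Over all genes 1038 were then higher and 2523 lower by mRNA, and 1011 and 2191 by pre-mRNA. Rab31 was thus below untreated with LPS and above it with LPS and IL-10 throughout, at 1.26 ± 0.21 (SE, adjusted p = 0.00608) by mRNA and 1.69 ± 0.28 (SE, adjusted p = 0.00428) by pre-mRNA. Rab19, a Golgi Rab not called with LPS alone, had 52.3 and 150.2 mRNA reads untreated, 19.6 and 60.2 with LPS and 11.6 and 18.1 with IL-10 throughout. Rab35 had 3210.2 and 3124 untreated and 5178 and 4681 with IL-10 throughout. The mRNA calls on Rab32, Rab12, Rab10, Rab31, Rab7b and Rab44 were made under every alternative run, and those on the other 8 genes were lost without at least 1 of the IL-10 throughout libraries. The pre-mRNA calls on Rab10, Rab12, Rab20, Rab40c and Rab44 were lost without at least 1 untreated and 1 IL-10 throughout library. Scaling to total reads ended the calls on Rab20 in both measures and on Rab35, only the groups compared those on Rab35 and Rab43, upper-quartile scaling that on Rab35, no filter that on Rab12 pre-mRNA and limma-voom that on Rab19. Fewer Rab genes were called without any one untreated or IL-10 throughout library, in either measure, and fewer genes over the whole table too. The matched fit called 25 by mRNA (52.8% of all genes) and 23 by pre-mRNA (51.1%).

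Regulators and effectors of Rab proteins were taken from 4 lists, of which 118 genes were in the table. With LPS 16 of them rose (against 19.2% of all genes) and 28 fell (against 16.5%) by mRNA, with a median of -0.25 beside 0.01 for all genes. The pre-mRNA of 26 rose (against 22.3%) and that of 28 fell (against 21.7%), shares of the list close to those of the table. Genes of recycling, escort and prenylation, which keep all Rab proteins soluble and lipid-modified, numbered 8 of 9 listed, of which 0 rose and 0 fell by mRNA. At an unadjusted limma p below 0.05 the count was 1 (2769 higher and 2549 lower over all genes), and with limma-voom it was 0. By pre-mRNA 0 rose and 1 fell of the 7 tested, beside 22.3% and 21.7% of all genes. Guanine exchange factors numbered 36 of 37 listed, of which 4 rose and 7 fell by mRNA, beside 19.2% and 16.5% of all genes. By pre-mRNA 8 rose and 7 fell, beside 22.3% and 21.7%. Rab3il1, an exchange factor for Rab8, fell by 4.52 ± 0.39 (SE, adjusted p = 0.000378), from a mean of 2981 to 132 normalised mRNA reads, and Dennd4c, one for Rab10, fell by 1.60 ± 0.20 (SE, adjusted p = 0.00147). Rabgef1, which activates Rab5, rose by 1.50 ± 0.19 (SE, adjusted p = 0.00173), and Rab3ip, which activates Rab8, rose by 0.94 ± 0.22 (SE, adjusted p = 0.0156).

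GTPase-activating proteins numbered 33 of 35 listed, and 2 rose and 11 fell by mRNA with a median of -0.45, where 19.2% of all genes rose and 16.5% fell. By pre-mRNA 6 rose (against 22.3%) and 9 fell (against 21.7%), with a median of -0.37. Tbc1d1 rose by 2.94 ± 0.26 (SE, adjusted p = 0.000396) and Tbc1d2b rose by 1.99 ± 0.19 (SE, adjusted p = 0.000547), while Tbc1d4, which inactivates Rab10, fell by 1.99 ± 0.36 (SE, adjusted p = 0.00637) and Tbc1d22a fell by 1.09 ± 0.22 (SE, adjusted p = 0.0103). Effectors numbered 41 of 54 listed, of which by mRNA 10 rose (19.2% of all genes did) and 10 fell (16.5% did). By pre-mRNA 12 rose (22.3% of all genes did) and 11 fell (21.7% did). Rab11fip1, a partner of Rab11 on recycling endosomes, rose by 5.72 ± 0.35 (SE, adjusted p = 0.000111), from a mean of 1307 to 64907 normalised mRNA reads. Lrrk2, a kinase that phosphorylates several Rab proteins, rose by 2.19 ± 0.20 (SE, adjusted p = 0.000429). Rab11fip5 fell by 2.61 ± 0.18 (SE, adjusted p = 0.000161), and Mical1, which oxidises actin, fell by 2.73 ± 0.25 (SE, adjusted p = 0.000449). Of the genes named from the 4 lists, the calls on Rab3ip and Tbc1d22a were lost without LPS library B and, for Tbc1d22a, without untreated library B; that on Rab3ip was lost also without untreated library A or LPS library A, under both other scalings and with only the groups compared. The other 10 were called under every alternative run. Over the 118 genes 67 were called by mRNA under scaling to total reads in place of 44, where over all genes 1203 rose and 4496 fell. Fewer regulators were called without untreated library A, untreated library B or LPS library B, and fewer genes over the whole table too. The matched fit called 77 by mRNA, where it called 60.4% of all genes.

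With IL-10 throughout, 4 of the 118 regulators were called against LPS by mRNA and 5 by pre-mRNA, named here after their values were seen. By mRNA 3 were higher (against 1.19% of all genes) and 1 lower (against 1.05%), and by pre-mRNA 1 was higher (against 2.44%) and 4 lower (against 4.26%). With so few genes called, these counts do not set the regulators apart. The matched fit called 21 by mRNA (15.3% of all genes) and 30 by pre-mRNA (25.1%). Rab3il1 mRNA rose by 4.50 ± 0.39 (SE, adjusted p = 0.00571) and its pre-mRNA rose by 3.89 ± 0.33 (SE, adjusted p = 0.00220), to mRNA means of 2922 with IL-10 throughout, 132 with LPS and 2981 untreated. With late IL-10 the Rab3il1 pre-mRNA rose by 4.60 ± 0.33 (SE, adjusted p = 0.00214) and its mRNA was at 1.53 ± 0.39 (SE, adjusted p = 1.000). Lrrk2 mRNA fell by 2.27 ± 0.20 (SE, adjusted p = 0.00571) and its pre-mRNA fell by 2.95 ± 0.30 (SE, adjusted p = 0.00414). By mRNA Rab11fip5 rose by 1.50 ± 0.18 (SE, adjusted p = 0.00931) and Ric1, an exchange factor for Rab6, rose by 1.00 ± 0.18 (SE, adjusted p = 0.0440). By pre-mRNA Dennd3, an exchange factor for Rab12, fell by 2.04 ± 0.33 (SE, adjusted p = 0.0157), Tbc1d1 fell by 2.38 ± 0.48 (SE, adjusted p = 0.0315) and Tbc1d15, which inactivates Rab7, fell by 1.18 ± 0.27 (SE, adjusted p = 0.0437). The calls on Rab3il1 and Lrrk2 were made under every alternative run. Those on Rab11fip5, Ric1, Dennd3, Tbc1d1 and Tbc1d15 were each lost without either IL-10 throughout library or LPS library A (that on Ric1 without any one of the 8 libraries, that on Tbc1d15 without any but LPS library B, that on Rab11fip5 also without LPS library B and that on Tbc1d1 also without either untreated library). With only the groups compared the calls on Rab11fip5, Ric1, Tbc1d1 and Tbc1d15 were lost, with no filter those on Tbc1d1 and Tbc1d15, and under scaling to total reads those on Dennd3 and Tbc1d15. More pre-mRNA calls were made among the regulators without LPS library B, and more over all genes too. By pre-mRNA late IL-10 gave 1 call among the regulators, that on Rab3il1, against 0.979% of all genes higher and 0.0629% lower. Late IL-10 gave 0 calls among them by mRNA, and 0 with limma-voom. At an unadjusted limma p below 0.05 there was 1, beside 92 higher and 15 lower of all genes.

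**Figure D5:**
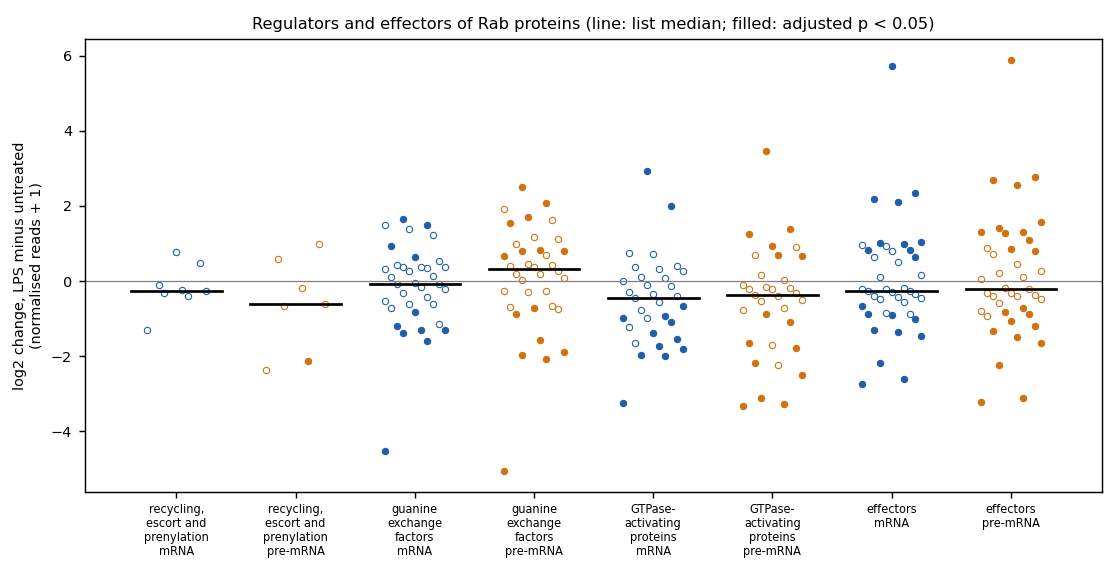
Log2 changes between LPS and untreated libraries for the genes of 4 lists of Rab regulators and effectors (1 point a gene, filled for an adjusted p below 0.05, line at the list median), by mRNA (blue) and pre-mRNA (orange). Rab11fip1 is the highest mRNA point at 5.72 and Rab3il1 the lowest at -4.52.

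The spread between libraries of a group bounds what can be read from these genes. The median gap between the 2 mRNA libraries of a group was 0.28 to 0.37 on the log2 scale over the Rab genes, beside 0.35 to 0.40 over all genes. The gaps were not evenly split: in LPS 31 of 44 Rab genes were higher in mRNA library B, and in IL-10 throughout 30 of 44 in library A. That split was not counted over all genes, so nothing particular to the Rab genes is read from it. Rab15 had the widest mRNA gap in 3 of the 4 groups, 1.58 in LPS, 2.10 in IL-10 throughout and 1.38 in late IL-10. Some genes share reads with a neighbour or copy. Besides Rab43, the share of 50-base words found in another gene was 58.1% for Rab4b (with Gm21983), 11.2% for Rab7 (with Rab7-ps1) and under 10% but over 5% for Rab5b, Rab8b, Rab9 and Rab11b. Rab4a overlaps Gm20388 on the same strand, and Rab2b, Rab3a, Rab5a, Rab6a, Rab15 and Rab24 each overlap a coding gene on the other strand, so their values are less certain if strand was not used in counting.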

How the data were processed

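Total RNA of macrophages from IL10-/-RAG2-/- mice was sequenced as ribosome-depleted directional libraries, 2 in each of 4 groups. The authors' deposited table gives, for 11415 genes, 1 mean of normalised reads per group for mRNA and 1 for pre-mRNA. Trim Galore, DESeq and the build mm10 are named per the submitters' processing notes. Not given in the sources used here are their versions, the aligner, the counter, the annotation and how pre-mRNA reads were told from mRNA reads.

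Within a column, each deposited value resolved into whole reads of the 2 libraries of the group, each divided by its own constant. Library A of a group is the one with the larger size factor and B the other. The letters themselves carry no link across groups or measures, and the labels give none. This resolution of group means was assumed in the design and found to hold for 100% of the values of every column. Differences of log2(normalised reads + 1) were tested with limma 3.58.1 (trended empirical Bayes, R 4.3.3) with all 4 groups in one fit per measure, for genes averaging 1 normalised read or more (11415 by mRNA, 11131 by pre-mRNA), with p-values adjusted by the method of Benjamini and Hochberg and a threshold of 0.05. The scale understates changes of genes with few reads. The pre-mRNA change was compared with the mRNA change in 1 fit over both measures, which treats them as independent although they share the RNA. The code of the test was run on simulated reads with the same spread parameter for every gene. That setting need not match the spread of these libraries.

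Rab genes were given by library when past the threshold in a comparison with IL-10 or among the 8 largest rises and 8 largest falls with LPS by mRNA, and regulators when their adjusted p was among the 2 smallest of the rises or of the falls in a list. The members and lists were chosen with earlier results of these data known. The comparison of IL-10 throughout with untreated cells, and that of the 2 measures for late IL-10, were added after the values were seen. Alternatives were other pseudocounts (0.5 and 5), filters (none, and a mean of 10), scalings (total reads, upper quartile), limma-voom on the recovered reads, fits of only the groups compared, and leaving out each library. Added after the values were seen was a fit with a block of libraries matched across groups, by the signs of their A minus B gaps that gave the largest sum of correlations between groups over genes outside the Rab family. Gene positions come from GENCODE M21 on mm10.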

Additional observations from a re-analysis of the deposited data

Results flagged for a closer look

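The following 2 results differed between the IL-10 schedules when each was set against the same LPS libraries. Rab31 mRNA was 2.34 above LPS on the log2 scale with IL-10 throughout and 0.05 above it with late IL-10, a difference of 2.30 (limma contrast, adjusted p = 0.0147). Both IL-10 throughout libraries were above both late IL-10 libraries. Rab29 pre-mRNA was at -1.48 with IL-10 throughout and at 0.18 with late IL-10, a difference of -1.66 (limma contrast, adjusted p = 0.0365), with both IL-10 throughout libraries below both late IL-10 libraries. Both calls were lost with only the groups compared in the fit. The call on Rab29 was lost also with no filter and under either other scaling. Losses with a library left out are given with that comparison above.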

How the results depend on the processing

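The deposited columns carry no replicate number, so the pairing rests on a match of libraries by their gaps, a hint from the data chosen after seeing them. With it as a block, Rab genes called with LPS were 31 by mRNA in place of 20 and 31 by pre-mRNA in place of 21, and regulators 77 in place of 44 and 83 in place of 54. For IL-10 throughout against LPS, Rab genes were 5 and 15 in place of 1 and 2, and regulators 21 and 30 in place of 4 and 5. For late IL-10 against LPS they were 2 and 7 by pre-mRNA in place of 1 and 1, and 0 and 0 by mRNA as without it. Between the IL-10 schedules the Rab genes were 5 and 11 and the regulators 19 and 32. For IL-10 throughout against untreated cells the Rab genes were 25 and 23 in place of 14 and 12, and 1 Rab gene in place of 0 differed between the measures with LPS. All Rab genes called without the block in these 5 comparisons were called with it. Of all genes the block called 60.4% by mRNA and 63% by pre-mRNA with LPS. For IL-10 throughout against LPS it called 15.3% and 25.1%, and for late IL-10 0.0526% and 4.29%. Between the schedules the shares were 13.7% and 23.8%, and for IL-10 throughout against untreated cells 52.8% and 51.1%. The counts with the block thus do not set the Rab genes or the regulators apart.

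Scaling to total reads turned Rab35, Rab5b and Rab5c mRNA to -0.18, -0.030 and -0.077 with LPS, and Rab14 pre-mRNA, not called, from 0.13 to -0.79. That scaling gave 67 called regulators by mRNA with LPS in place of 44, and 6 between the IL-10 schedules in place of 3. Between IL-10 throughout and LPS the called Rab genes by pre-mRNA were 1 in place of 2 with no filter, with either other scaling and with only the groups compared. The called regulators there were 3 in place of 5 with no filter or only the groups compared and 9 with upper-quartile scaling, and by mRNA 2 in place of 4 with only the groups compared. Between the IL-10 schedules the 1 Rab gene called by pre-mRNA became 0 with no filter, either other scaling or only the groups compared, and the 1 called by mRNA became 0 with only the groups compared. In that last fit 0 genes of the whole table were called by mRNA in either direction. Of the 3 regulators called there in each measure, 0 remained by mRNA with only the groups compared, and by pre-mRNA 0 with no filter and 1 with only the groups compared. The 1 Rab gene whose measures differed with late IL-10 became 0 with only the groups compared. These causes were not tested.

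Leaving out 1 library at a time gave the following lowest and highest counts. Rab genes called with LPS were 8 to 17 by mRNA and 10 to 23 by pre-mRNA, and regulators 18 to 41 and 32 to 53. For IL-10 throughout against LPS, Rab genes were 1 to 1 by mRNA and 1 to 5 by pre-mRNA, and regulators 2 to 3 and 2 to 10, with the highest pre-mRNA counts without LPS library B. For late IL-10 against LPS, Rab genes were 0 to 0 and 1 to 1, and regulators 0 to 0 and 1 to 2. Between the IL-10 schedules Rab genes were 0 to 1 and 0 to 2, and regulators 0 to 3 and 0 to 5. For IL-10 throughout against untreated cells Rab genes were 7 to 13 and 8 to 13. Calls over all genes changed with the library left out too, so these counts do not describe the Rab genes or the regulators alone. With 1 library left in a group, that library was assumed to vary like the other groups. With 2 libraries a group, a difference that missed the threshold is not shown to be absent, and 4 Rab genes had under 10 pre-mRNA reads in some library.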
